A study of Mus musculus with 6 samples.

Results

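Small leucine-rich proteoglycans are secreted matrix proteins whose curved core, built of leucine-rich repeats, binds collagen fibrils and growth factors. The members described here are decorin (Dcn), biglycan (Bgn), asporin (Aspn), fibromodulin (Fmod), lumican (Lum), PRELP (Prelp), keratocan (Kera), osteomodulin (Omd), epiphycan (Epyc) and mimecan (Ogn). These 10 genes were chosen by symbol from the 24062 symbols of the counted table, and none was chosen by its values. Earlier results of these data were known when they were chosen. Each symbol was found.

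The samples were auditory nerves dissected from the cochleae of young adult mice, each holding RNA from the 2 cochleae of 1 animal. There were 3 wildtype samples of the C57BL/6 strain and 3 Vcan knockout samples, for which the labels give the same strain. Versican, encoded by Vcan, is a large chondroitin sulfate proteoglycan, and the study set Vcan knockout nerves against wildtype nerves. The labels name neither the allele nor the part of Vcan that was altered, nor any litter or dissection day.

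By background knowledge, the family falls into classes by sequence. Class I (Dcn, Bgn, Aspn) carries chondroitin or dermatan sulfate chains on decorin and biglycan, while asporin has none. Class II (Fmod, Lum, Prelp, Kera, Omd) is mostly substituted with keratan sulfate, and class III holds Epyc and Ogn. In peripheral nerve the connective sheaths and endoneurial fibroblasts are known sources of decorin, lumican and mimecan, and in the cochlea epiphycan is known from supporting cells of the sensory epithelium. Versican itself carries the same kind of chains as decorin but belongs to another family, the lecticans, which bind hyaluronan.

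The 6 libraries held 74530860 to 92513887 gene counts. Levels are given as CPM (counts scaled to a fixed total) after TMM scaling, which adjusts library totals for differences in composition. Vcan, the targeted gene, was at 8.36, 9.61 and 7.32 CPM in wildtype replicates 1 to 3 and at 5.44, 2.70 and 2.88 CPM in knockout replicates 1 to 3. All knockout values lay below the wildtype ones, and the difference passed over all genes in DESeq2 (adjusted p = 0.0342) but not in edgeR (adjusted p = 0.558). Vcan transcripts remained in the knockout libraries. Of the neuronal markers the most abundant was Snap25, a synaptic membrane protein, at 1534 to 3502 CPM, and the least abundant Prph, the neurofilament protein peripherin, at 2.10 to 15.3 CPM. Wildtype replicate 3 stood apart in its cell type markers. Its log2 CPM correlated with the other libraries at 0.948 to 0.957, against 0.957 to 0.986 among those, so these ranges nearly met. Its summed markers of the stria vascularis, the cochlear tissue that makes endolymph, were at 3716 CPM against 395 to 926 CPM elsewhere, and its summed neuronal markers at 5036 CPM against 8173 to 10016 CPM. Results are therefore also given without this library. Knockout replicate 1 correlated best with wildtype replicate 1 (0.977), and with knockout replicates 2 and 3 at 0.961 and 0.962.

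Taken as a family, transcripts of these proteoglycans made up 0.185% ± 0.0127 (SD, n = 3) of wildtype counts and 0.165% ± 0.0119 (SD, n = 3) of knockout counts. Their summed level was 1862 ± 140.5 CPM in wildtype and 1638 ± 134 CPM in the knockouts (SD, n = 3), and the groups overlapped. Decorin alone gave 46.7% ± 5.14 of the family's CPM in wildtype and 40.5% ± 3.36 in knockout nerve (SD, n = 3). Because these are pieces of tissue, fewer cells of a type and less RNA per cell cannot be told apart.

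Levels of different genes were compared per kilobase of exon. In wildtype nerve decorin was the most abundant at 148 ± 11.7 CPM per kilobase, followed by mimecan at 114 ± 10.8 and epiphycan at 75.5 ± 51.1 CPM per kilobase (SD, n = 3). Dcn and Ogn stood apart, whereas Epyc overlapped Ogn in its spread. Lumican (40.5 ± 9.54), fibromodulin (30.9 ± 11.9), biglycan (28.5 ± 2.00) and PRELP (27.3 ± 2.07) came next, and these neighbours in the order did not differ beyond their spread (CPM per kilobase, SD, n = 3). Osteomodulin was at 12.9 ± 5.42 and asporin at 3.09 ± 0.503 CPM per kilobase (SD, n = 3). Dcn led in the other libraries, but in knockout replicate 3 Epyc was at 124 and Dcn at 109 CPM per kilobase. That order in knockout replicate 3 holds only when all exon bases are taken as the length. With the length of the longest transcript, Dcn was above Epyc in that library as well. The place of biglycan depends on the gene length used: its exons cover 6099 bases in all but 2666 in its longest transcript, and with the latter its wildtype level was 65.2 ± 4.57 CPM per kilobase (SD, n = 3), above that of Lum.

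**Figure D1:**
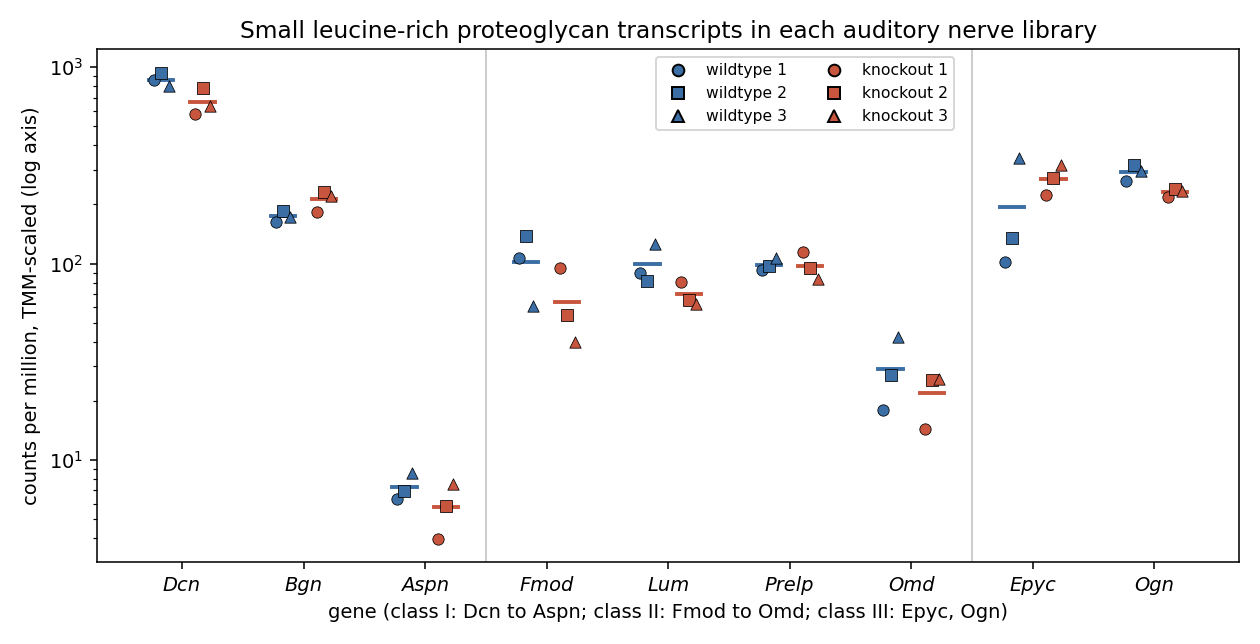
Level of 9 members in each of the 6 libraries, in TMM-scaled CPM on a log axis, with horizontal bars at group means and marker shapes for the replicate. Dcn, Lum and Ogn sit lower in every knockout library than in any wildtype library, while Epyc spans 102 to 343 CPM within wildtype.

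No member passed the test of knockout against wildtype over all genes. Of the 10, 9 had enough counts to be tested and Kera did not. None of the 9 was called (edgeR quasi-likelihood, Benjamini-Hochberg adjusted p under 0.05), where 0.138% of the 16722 genes tested were. DESeq2 also called none of them, where it called 1.36% of genes. By sign, 7 of the 9 had a negative log2 fold change against 51.1% of all genes, with a median of −0.34 against −0.01. At an unadjusted p under 0.05 there were 2 members in edgeR (Lum and Ogn, both lower) and 3 in DESeq2 (Dcn, Lum and Ogn), where 5.2% (2.64% lower) and 5.88% of all genes were. For 3 of the 9, Dcn, Lum and Ogn, every knockout library lay below every wildtype library, against 4.93% of all genes. None lay wholly above, against 5.42% of all genes. Without wildtype replicate 3 those lying below were Dcn, Fmod and Ogn, those lying above were Bgn and Epyc, and the shares over all genes were 11.0% and 10.2%. In the authors' deposited table the lowest adjusted p among the members was that of Ogn (0.572), and 1.34% of genes there are under 0.05.

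**Figure D2:**
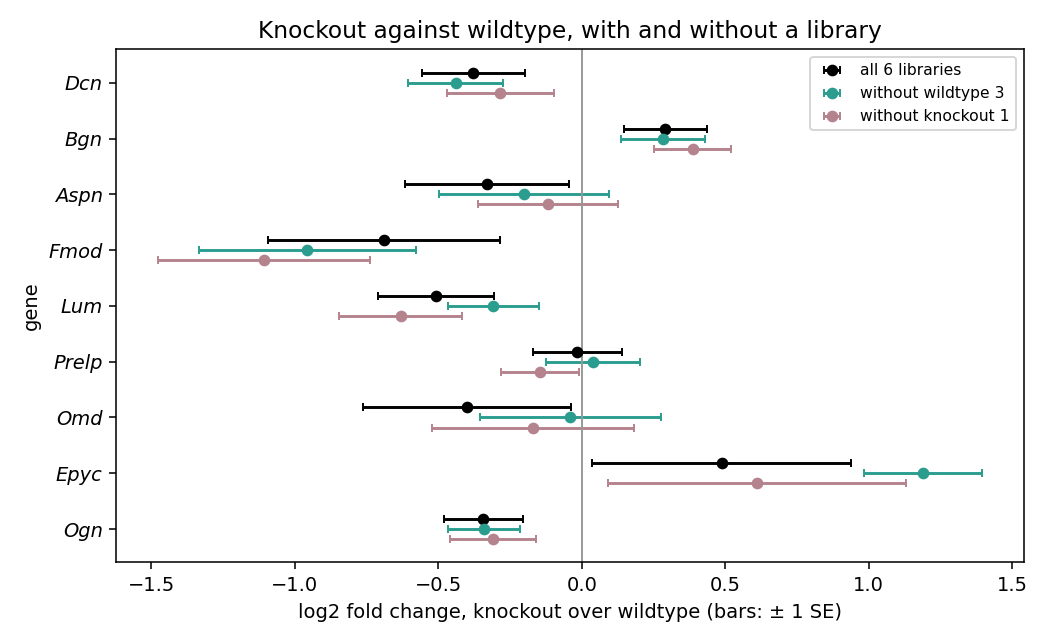
Log2 fold change of knockout over wildtype for 9 members (points, with bars of ± 1 SE from edgeR), fitted with all 6 libraries, without wildtype replicate 3 and without knockout replicate 1. Dcn, Lum, Fmod and Ogn lie left of 0 in all 3 fits and Bgn and Epyc right of it, while Prelp changes side and Epyc moves from 0.49 to 1.19 without wildtype replicate 3.

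Among class I genes decorin and biglycan differed in sign. Decorin, which binds collagen fibrils and limits their thickness, was at 860.2, 937 and 799.9 CPM in the wildtype libraries and at 576, 788 and 634 CPM in the knockout libraries. The knockout values were all lower, with a narrow gap between knockout replicate 2 and wildtype replicate 3. The group means were 866 ± 68.5 and 666 ± 109.6 CPM (SD, n = 3), a log2 fold change of −0.38 (SE 0.18, edgeR adjusted p = 1.00). Scaled by library totals alone or by the upper quartile, the groups overlapped.

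Biglycan, the closest relative of decorin, was at 162, 186 and 174 CPM in wildtype and at 184, 233 and 222 CPM in the knockouts. Of the knockout libraries, replicate 1 alone was inside the wildtype range with this scaling. Scaled by library totals alone or by the upper quartile the groups also overlapped, and with RLE scaling they did not. The means were 174 ± 12.2 and 213 ± 25.6 CPM (SD, n = 3), with a log2 fold change of 0.29 (SE 0.15, edgeR adjusted p = 1.00). Summed markers of endothelial cells were at 289 to 316 CPM in wildtype and 366 to 439 CPM in knockout libraries, with 4 of 7 genes higher, and their part in the biglycan values was not tested. The largest differences were in Emcn, the sialomucin endomucin, and Cldn5, a tight junction protein, at 79.0 to 114 and 28.4 to 49.1 CPM in wildtype and 131 to 214 and 42.5 to 90.6 CPM in the knockouts. The adhesion genes Pecam1 and Cdh5 and the receptor gene Flt1 were lower by sign, with log2 fold changes of −0.22, −0.12 and −0.18.

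Asporin, which binds collagen and restrains growth factor signalling in cartilage, was sparse. It was at 6.30, 6.91 and 8.59 CPM in wildtype and 3.95, 5.83 and 7.55 CPM in the knockouts. The groups overlapped, and the log2 fold change was −0.33 (SE 0.29, edgeR adjusted p = 1.00). It moved to −0.12 without knockout replicate 1, the lowest library.

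The ratio of biglycan to its relatives does not depend on how libraries are scaled. Decorin outnumbered biglycan 5.31, 5.03 and 4.61 times in the wildtype libraries and 3.13, 3.39 and 2.85 times in the knockout libraries, as raw counts. The groups stood apart, at 4.98 ± 0.355 and 3.12 ± 0.267 (SD, n = 3). Mimecan counts were 1.62, 1.71 and 1.71 times those of biglycan in wildtype and 1.19, 1.03 and 1.05 times in knockout nerve. These groups were also apart, at 1.68 ± 0.0477 and 1.09 ± 0.0885 (SD, n = 3). On the log2 scale the mean Dcn to Bgn ratio differed by −0.68 and the Bgn to Ogn ratio by 0.63 between knockout and wildtype. Lumican to biglycan overlapped narrowly, at 0.439 to 0.724 and 0.281 to 0.440. Of the 36 pairs among the 9 members, 7 had ratios that did not overlap between groups, and 3 of the 8 pairs with Bgn. The ratio to Bgn separated the groups for 24% of all genes tested that to Dcn for 33.2% and that to Ogn for 34.8%, so such separation was common. These pairs were singled out after their values were seen and have no test.

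**Figure D3:**
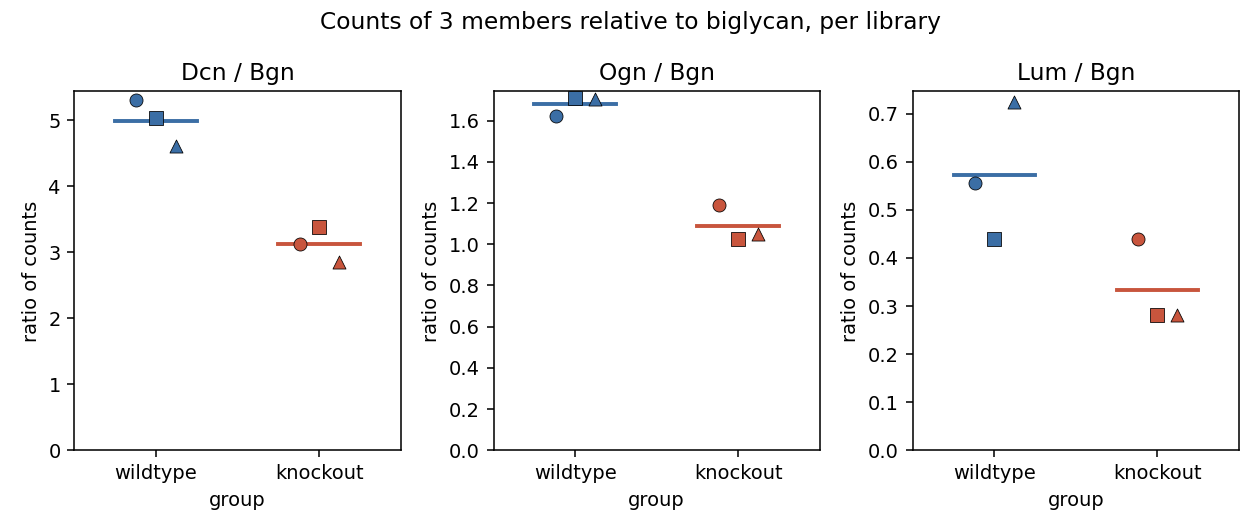
Ratio of raw counts of Dcn, Ogn and Lum to those of Bgn in each library (points, with marker shapes for the replicate) and group means (bars), with axes starting at 0. Dcn to Bgn lies between 4.61 and 5.31 in wildtype and between 2.85 and 3.39 in knockout, whereas Lum to Bgn overlaps.

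Sequences at the start sites of Bgn and Ogn, a pair whose ratio did not overlap between groups, are shown. That of Epyc, the tested member that varied most in wildtype, is given beside them. Each runs from 250 bases before to 50 bases after the RefSeq start (GRCm38.p6), read on the plus strand, the coding strand of all 3 genes. Of the 10 members, 8 matched an entry, all but Dcn and Lum. Capitals mark matches on either strand to TATAAA (the TATA box), GGGCGG (the GC box), CCAAT or TGANTCA (the AP-1 site), and overlapping matches run together. Bgn is at chrX:73483351-73483650, Ogn at chr13:49607765-49608064 and the first Epyc start at chr10:97643818-97644117.
Bgn: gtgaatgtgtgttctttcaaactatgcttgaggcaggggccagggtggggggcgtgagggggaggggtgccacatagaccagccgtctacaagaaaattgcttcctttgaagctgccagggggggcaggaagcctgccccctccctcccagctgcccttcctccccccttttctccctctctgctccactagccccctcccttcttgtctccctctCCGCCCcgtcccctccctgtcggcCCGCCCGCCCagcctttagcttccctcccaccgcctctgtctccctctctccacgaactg
Ogn: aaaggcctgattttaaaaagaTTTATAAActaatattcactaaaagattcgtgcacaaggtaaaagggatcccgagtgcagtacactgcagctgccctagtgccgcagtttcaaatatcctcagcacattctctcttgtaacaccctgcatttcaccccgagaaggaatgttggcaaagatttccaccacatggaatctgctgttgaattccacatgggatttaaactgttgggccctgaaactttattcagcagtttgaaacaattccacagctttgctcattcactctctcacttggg
Epyc: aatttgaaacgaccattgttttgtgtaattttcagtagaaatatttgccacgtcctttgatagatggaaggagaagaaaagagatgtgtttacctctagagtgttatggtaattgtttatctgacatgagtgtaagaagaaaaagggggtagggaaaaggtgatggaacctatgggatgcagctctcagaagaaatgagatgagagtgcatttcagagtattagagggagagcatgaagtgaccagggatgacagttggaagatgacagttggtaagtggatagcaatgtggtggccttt
The Bgn window held 3 matches to the GC box, 2 of them overlapping, and no TATAAA, with 63.7% G or C and 9 CG dinucleotides. The Ogn window held 2 overlapping matches to TATAAA (TTTATAAA reads as the motif on both strands) and no GC box, with 42.3% G or C and 4 CG dinucleotides. These TATAAA matches lie near the upstream end of the window, far from the start site. The Epyc window held none of the 4 motifs and 40.3% G or C. Over all 32851 windows of the same table the median was 52.7% G or C, and 35.7% held a GC box, 13.6% a TATAAA, 37.4% a CCAAT and 7.81% an AP-1 match. These are matches of letters and not measured binding.

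Class II was led in wildtype by fibromodulin, lumican and PRELP. Lumican, which regulates fibril spacing in the cornea and tendon, was at 89.9, 81.8 and 126 CPM in wildtype and 81.0, 65.5 and 62.5 CPM in the knockouts. Each knockout library was lower than each wildtype one, by a narrow margin between knockout replicate 1 and wildtype replicate 2. The log2 fold change was −0.51 (SE 0.20, edgeR adjusted p = 0.891). Without wildtype replicate 3, its highest library, it was −0.31 (SE 0.16) and the groups overlapped, as they did with RLE scaling of all libraries and without knockout replicate 2 or 3.

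Fibromodulin, which binds the same site on collagen as lumican, had the largest relative decrease in mean of the tested members, at −38.0%, and a wide spread. It was at 107, 139 and 60.8 CPM in wildtype and 95.4, 54.7 and 40.1 CPM in the knockouts. The low wildtype library was replicate 3 and the high knockout library replicate 1, so the groups overlapped. The means were 102 ± 39.2 and 63.4 ± 28.6 CPM (SD, n = 3), with a log2 fold change of −0.69 (SE 0.40, edgeR adjusted p = 1.00). It was −1.11 without knockout replicate 1, −0.96 without wildtype replicate 3 and −0.41 without wildtype replicate 2. Summed meningeal markers ran in the same order within each group, at 564, 702 and 309 CPM in wildtype and 722, 509 and 374 CPM in knockout libraries. Across groups the orders differed. The meningeal sum was highest in knockout replicate 1 and lowest in wildtype replicate 3, and Fmod highest in wildtype replicate 2 and lowest in knockout replicate 3. The most abundant, the transporter gene Slc6a13, was at 131, 152 and 53.5 CPM and at 199, 119 and 68.3 CPM. None of these 10 genes passed and 5 were higher, and their lowest member, the transcription factor Alx4, was at 0.545 to 1.07 CPM. The part of meningeal tissue in the Fmod values was not tested.

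PRELP, which links basement membranes to the collagen beneath, was the most even member. It was at 92.3, 97.2 and 107 CPM in wildtype and 115, 94.9 and 83.6 CPM in the knockouts. Group means of 98.8 ± 7.48 and 97.7 ± 15.8 CPM (SD, n = 3) gave a log2 fold change of −0.02 (SE 0.15, edgeR adjusted p = 1.00), whose sign turned with the library left out. Of its exon bases, 9.68% lie opposite an exon of an antisense transcript, and whether the counting used strand is not given in the sources used here.

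Osteomodulin, known from mineralised bone matrix, was at 17.9, 27.1 and 42.1 CPM in wildtype and 14.4, 25.6 and 25.9 CPM in the knockouts. It was highest in wildtype replicate 3 and lowest in knockout replicate 1. The log2 fold change of −0.40 (SE 0.36, edgeR adjusted p = 1.00) was −0.04 without wildtype replicate 3. Summed osteoblast markers were at 242, 198 and 379 CPM in wildtype and 258, 333 and 376 CPM in knockout libraries, with another order. Summed chondrocyte and fibrocyte markers were both highest in wildtype replicate 3, at 1372 and 22884 CPM, and lowest in knockout replicate 1, at 538 and 9268 CPM. The most abundant chondrocyte marker was Lect1 (chondromodulin), at 176, 204 and 456 CPM in wildtype and 124, 159 and 174 CPM in knockout libraries. The list also includes Matn3 and Col10a1, which reached at most 0.0132 and 0.128 CPM. Of the 8 chondrocyte genes tested none passed and 7 were lower, and the part of these cells in the Omd values was not tested.

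Keratocan, a component of the corneal stroma, was near absent, with 0, 0 and 72 counts in the wildtype libraries and 1, 13 and 0 in the knockout libraries. The 72 counts of wildtype replicate 3 correspond to 0.812 CPM of its unscaled total (95% exact Clopper-Pearson interval 0.635 to 1.02). A library with 0 counts allows 0.0339 to 0.0362 CPM, depending on its total, taking 3 counts as the limit. Both cover counting error only. The 2 libraries with more than 1 count were wildtype replicate 3 and knockout replicate 2, which also held the highest levels of Dct, a melanocyte enzyme, at 1266 and 206 CPM. Dct was at 0.962 to 36.8 CPM in the other libraries, and its relation to the Kera counts was not tested.

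Class III holds epiphycan, with a positive, and mimecan, with a negative sign, and the ratio of their counts overlapped between groups. Epiphycan, known from growth plate cartilage and the cochlea, was at 102, 134 and 343 CPM in wildtype and 223, 272 and 318 CPM in the knockouts. The knockout libraries were all above wildtype replicates 1 and 2, while wildtype replicate 3 was the highest of all. The means were 193 ± 131 and 271 ± 47.8 CPM (SD, n = 3), with a log2 fold change of 0.49 (SE 0.45, edgeR adjusted p = 1.00). Without wildtype replicate 3 it was 1.19 (SE 0.21, edgeR adjusted p = 0.249), and without wildtype replicate 1 it was 0.18. Of the 10 spiral ligament fibrocyte markers 4 were higher and 6 lower by sign (median −0.05). The most abundant, Coch, which encodes cochlin, was at 9083, 10536 and 15817 CPM in wildtype and 6699, 13659 and 14203 CPM in knockout libraries. Otos (otospiralin) was at 1323, 2028 and 3398 CPM in wildtype and 1799, 3569 and 3993 CPM in knockout libraries. Summed markers of cochlear supporting cells were at 1208, 1535 and 2903 CPM and at 1374, 1819 and 1678 CPM, with 3 of 11 genes higher and 8 lower by sign (median −0.18). In all of these, as for Epyc, wildtype replicate 3 was the highest wildtype library. The same held for the summed chondrocyte, osteoblast and stria markers, at 1372, 379 and 3716 CPM there. None of the 10 fibrocyte or 11 supporting cell markers passed, and their part in the Epyc values was not tested.

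Epyc shares 40.6% of its exon bases with the noncoding transcript Gm10754 on the opposite strand. Gm10754 was counted at 2.57, 2.43 and 7.88 CPM in wildtype and 4.02, 6.74 and 7.77 CPM in the knockouts. Its 2 lowest libraries were those lowest in Epyc, and its highest was wildtype replicate 3. Without knowing whether the counting used strand, reads of the pair cannot be told apart, and how reads in both were assigned is not given in the sources used here.

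Mimecan, a leucine-rich protein of connective tissue and bone, had the narrowest spread among knockout libraries relative to its mean. It was at 263, 318 and 296 CPM in wildtype and 219, 239 and 233 CPM in the knockouts. The groups did not overlap, and this held with the 3 other scalings, under which 4.41% to 4.90% of all genes lay lower without overlap. The means were 292 ± 27.7 and 230.4 ± 10.2 CPM (SD, n = 3), a log2 fold change of −0.34 (SE 0.14, edgeR adjusted p = 0.897). It ranged from −0.42 to −0.28 when each library was left out in turn, without passing over all genes in any fit.

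Most members lie in clusters of the family. On chromosome 10, Dcn, Lum, Kera and Epyc stand side by side within 202 kb (97479500 to 97681908, GRCm38). On chromosome 13, Ecm2, Aspn, Omd and Ogn lie within 120 kb (49504810 to 49624501), and on chromosome 1, Optc, Prelp and Fmod lie within 151 kb (133897193 to 134048280). Bgn is on the X chromosome. The chromosome 13 cluster ends 40.0 Mb from Vcan on the same chromosome. In the chromosome 10 cluster Dcn and Lum had negative and Epyc a positive fold change. The 3 members on chromosome 13 were all negative, but relative to one another they varied: Omd counts were 0.0682 to 0.142 of Ogn counts in wildtype and 0.0657 to 0.111 in knockout libraries. Aspn, Omd and Ogn lie inside the span of Cenpp, a centromere protein gene on the other strand. Its exons meet theirs at 7 bases of Aspn alone, and it was counted at 2.41 to 3.64 CPM. On chromosome 1, Fmod counts were 0.568 to 1.43 times those of Prelp in wildtype and 0.480 to 0.831 times in knockout libraries, with overlap.

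**Figure D4:**
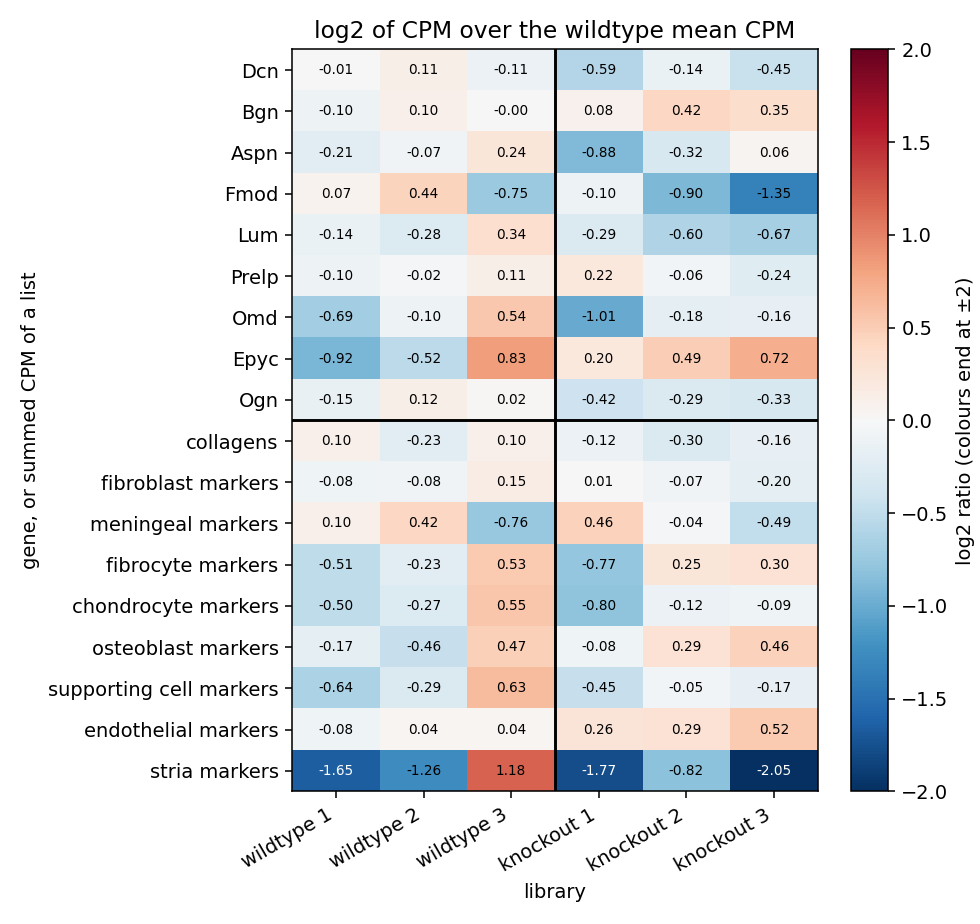
Log2 of each library's CPM over the wildtype mean CPM, for 9 members (top) and for the summed CPM of collagens and marker lists (bottom), with libraries in columns and the value printed in each cell. Ogn is negative in all 3 knockout libraries (−0.42, −0.29 and −0.33), and Fmod and the meningeal markers are both low in wildtype replicate 3 (−0.75 and −0.76). Epyc is high there (0.83), as are the markers of fibrocytes (0.53), supporting cells (0.63), chondrocytes (0.55), osteoblasts (0.47) and stria (1.18).

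The partners of these proteoglycans gave no calls either. Of 7 further leucine-rich matrix genes 6 were tested, 4 with a positive and 2 with a negative sign (median log2 fold change 0.18). The most abundant were Chad, the cartilage protein chondroadherin, at 36.8 to 79.7 CPM in wildtype and 32.1 to 89.0 CPM in the knockouts, and Ecm2 at 28.8 to 44.9 and 30.6 to 33.8 CPM. Opticin (Optc), next to Prelp, was at most at 0.0702 CPM.

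The collagens that decorin, lumican and fibromodulin coat were mostly lower by sign. Of 14 genes for fibril-forming and fibril-associated collagens 13 were lower by sign and 1 higher, with a median of −0.17, and none passed. Their summed level was 1819 to 2288 CPM in wildtype and 1734 to 1959 CPM in knockout libraries. The most abundant were Col1a2, a chain of type I collagen, at 488 to 714 and 486 to 594 CPM, and Col11a2, a cartilage collagen chain, at 465 to 892 and 493 to 589 CPM. Of 13 genes for collagen processing and cross-linking 10 were lower by sign (median −0.21), among them the lysyl hydroxylase Plod1 at 81.6 to 102 and 65.0 to 76.5 CPM and the lysyl oxidase Lox at 48.1 to 109 and 46.8 to 68.9 CPM.

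Enzymes that build the sugar chains stood close to 0 as lists. For the chondroitin and dermatan sulfate enzymes, 10 of 17 were higher by sign with a median of 0.03. Fam20b, the xylose kinase of the linkage region, was at 164 to 190.2 CPM in wildtype and 168 to 189 CPM in the knockouts, and the sulfotransferase Chst11 at 99.9 to 171 and 117 to 125 CPM. For keratan sulfate 2 of 7 enzymes were higher by sign with a median of −0.04, and Chst2, a sulfotransferase, was at 87.3 to 214 and 149 to 169 CPM. B3gnt2, which adds N-acetylglucosamine to the chain, was at 59.4 to 66.0 and 56.4 to 66.5 CPM. Proteases that cut these core proteins had a median of −0.16 over 9 tested genes, with Adamts5, an aggrecanase, at 65.4 to 118 and 102 to 112 CPM and the gelatinase Mmp2 at 58.2 to 97.6 and 59.1 to 83.6 CPM. Of 23 growth factors and receptors bound by the family 6 were higher and 17 lower by sign (median −0.19). The clearance receptor Lrp1 was at 251 to 576 and 251 to 597 CPM and the integrin chain Itgb1 at 283 to 393 and 267 to 313 CPM. None of the partner genes passed over all genes in edgeR or DESeq2, and Col3a1 and Chsy3 alone had an unadjusted p under 0.05 in edgeR.

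Of the fibroblast markers none was called, and they differed in sign. Their summed level was 340.2 to 399.6 CPM in wildtype and 314 to 362 CPM in knockout libraries, with 4 of 12 genes higher and 8 lower by sign (median −0.09). Of the 12, 2 were wholly higher in the knockouts, against 5.42% of all genes, and none was wholly lower. These were Pi16, at 1.10 to 1.56 against 1.80 to 3.12 CPM, and Mfap5, an elastic microfibril gene, at 4.66 to 7.78 against 7.96 to 10.6 CPM. Pdgfra, the receptor that marks fibroblasts, was at 111 to 154 and 101 to 161 CPM and the matrix protein gene Fbln1 at 59.1 to 97.4 and 75.9 to 88.0 CPM. No fibroblast marker was at 0 in all libraries, and the part of fibroblast number in the Dcn, Lum and Ogn values was not tested. Markers of other cells differed by list. Schwann cell, neuronal and endothelial markers stood near 0 (medians −0.05, 0.03 and 0.04). The summed endothelial markers were higher, as given above, with the largest differences in Emcn and Cldn5. Summed macrophage markers were at 222 to 227 CPM in wildtype and 151 to 189 CPM in knockout libraries, with 7 of 9 genes lower by sign. All 8 astrocyte markers and all 8 oligodendrocyte markers were lower by sign (medians −0.69 and −0.60). Their sums overlapped between groups for astrocytes (1961 to 4606 and 1428 to 2638 CPM) and narrowly for oligodendrocytes (787 to 1252 and 479 to 788 CPM). The astrocyte sum rests most on S100b, which was at 959, 1274 and 3837 CPM in wildtype. In knockout libraries S100b was at 724, 1941 and 1378 CPM, so the overlap of the sums need not hold for the other astrocyte markers. Of the 8 astrocyte markers 2, Aqp4 and Aldh1l1, were wholly lower in the knockouts, against 4.93% of all genes, and none was wholly higher. Aqp4, the astrocyte water channel, was at 115 to 275 and 49.2 to 79.2 CPM and passed in DESeq2 (adjusted p = 0.0036) but not in edgeR (adjusted p = 0.381). The part of these cells in the values of the proteoglycans was not tested.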

How the data were processed

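Total RNA of 3 wildtype and 3 Vcan knockout auditory nerve samples was sequenced, per the labels' protocols, from TruSeq libraries. The authors deposited raw counts per gene, mapped to mm10 and counted with HTSeq, per the submitters' processing notes, with strand setting and versions not given in the sources used here. Per the file headers, the same deposited table holds the authors' DESeq2 comparison: a mean signal of scaled counts, a log2 fold change with its error, a test score, and a p-value with its adjusted value.

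Of 24067 rows, 5 repeats with identical counts were joined. Counts were filtered by filterByExpr, scaled by TMM (factors 0.964 to 1.02) and tested with robust quasi-likelihood F tests (2-sided, R 4.3.3, edgeR 4.0.16), adjusted by Benjamini-Hochberg over 16722 genes at a threshold of 0.05, with no covariate. The standard error of a fold change is its size over the square root of F. DESeq2 1.42.0, limma-voom (limma 3.58.1), other scalings and filters, a replicate block and leaving out each library were tried. Precision is limited by 3 samples per group, at 74530860 to 92513887 counts each. Lengths are of exons in GENCODE vM21, and coordinates and start-site windows are from RefSeq (GRCm38.p6).

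The members and all lists were chosen with earlier results of these data known. All members are named, and of each partner list any gene that passed, or else the 2 genes of highest mean CPM, and of the marker lists described, genes of highest mean. Lowest markers are given as limits. Other named genes were chosen after their values were seen. Wisp1 and Lect1 stand for the current symbols Ccn4 and Cnmd.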

Additional observations from a re-analysis of the deposited data

How the results depend on the processing

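No member was called under any of the 14 alternatives run, and 6 or 7 of the 9 stayed lower by sign. The number of genes called over the table was 23 and changed to 252 with DESeq2 and to between 3 and 14 when each library was left out. Of the members, Prelp changed sign, to 0.0021 with library totals only, 0.039 without wildtype replicate 3, 0.0010 without knockout replicate 2 and 0.078 without knockout replicate 3. The cause was not tested. The 8 other tested members kept their sign in all 14. The count of members wholly higher in knockout libraries was 0 and became 1 (Bgn) with RLE scaling, and 0 to 2 when each library was left out, where 5.40% of all genes with RLE scaling and 6.93% to 19.3% with a library left out were wholly higher. The titles number samples alike in both groups, but same-numbered samples did not deviate together in every pair (correlations 0.43, 0.22 and −0.15), so the numbers were not taken as pairs. The knockout columns carry other numbers than the titles, and the block rests on the titles. With the replicate block 3 genes were called and no member.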

Other observations

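Some genes of the partner lists had groups that did not overlap, without passing over all genes in edgeR. Wholly lower were 1 of 14 collagen, 2 of 13 cross-linking and 1 of 23 growth factor and receptor genes, against 4.93% of all genes. Wholly higher were 1 of 13 cross-linking and 1 of 17 chondroitin and dermatan sulfate enzyme genes, against 5.42% of all genes. Plod1 and Tgfbr1 (lower) and Pcolce (higher) are among them. The genes below were picked out after their values were seen. Col3a1, a fibril-forming collagen chain that decorin binds, was at 134, 121 and 127 CPM in wildtype and 96.3, 89.0 and 101 CPM in the knockouts (edgeR adjusted p = 0.617). Loxl2, a lysyl oxidase that cross-links collagen, was at 4.61, 3.76 and 13.03 CPM in wildtype and 3.41, 3.65 and 2.79 CPM in the knockouts (edgeR adjusted p = 1.00). In the other direction Chsy3, a chondroitin synthase, was at 1.25, 1.47 and 4.02 CPM in wildtype and 5.31, 6.14 and 8.23 CPM in the knockouts (edgeR adjusted p = 0.703). Versican, decorin and biglycan all carry chains of the kind that this enzyme extends.

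Among 8 mural cell markers 1, Rgs5, was wholly lower and none wholly higher, against 4.93% and 5.42% of all genes. Other marker lists also had wholly lower genes, among them 3 of 9 macrophage and 2 of 8 astrocyte markers. Rgs5, a pericyte regulator of G protein signalling, was at 75.8, 62.8 and 116 CPM in wildtype and 56.1, 37.0 and 32.1 CPM in the knockouts (edgeR adjusted p = 0.631), while the pericyte receptor Pdgfrb was at 88.6 to 110.5 and 85.9 to 115 CPM.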
